A study of Mus musculus with 18 samples.

Results

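The genes described here are 44 mouse genes of DNA replication and deoxynucleotide supply. They were taken by name from a table of total RNA with 23219 features, and all 44 were found in it under those names. The samples were CD4+ T cells from lymph nodes and spleen of C57BL6 mice, in 3 groups with 3 libraries each. Naive cells were set against antigen-specific cells that dendritic cells had activated, divided into cells with low Hopx and cells with high Hopx; Hopx encodes a small homeodomain protein. The labels give every library an intraperitoneal injection of chimeric antibodies that carry antigen to dendritic cells, 5 days before the cells were collected, and do not say whether the naive cells came from injected mice. The sources used here do not give genotype, age, any transgene or the way Hopx was read to divide the cells. Nor do the labels say whether libraries of a group came from separate animals or from pools. The p-values speak for the spread among these libraries, and how much of that spread is technical is not known.

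Chromosomal DNA is copied once per cell cycle. In G1 the origin recognition complex, Cdc6 and Cdt1 load the hexameric Mcm helicase onto origins; kinases, Cdc45 and the GINS complex then turn it into a moving fork, where polymerases work on a sliding clamp and CAF-1 places histones on the new DNA. Resting T cells keep much of this machinery low and raise it after antigen contact, largely through E2F transcription factors, and ribonucleotide reductase, thymidylate synthase and thymidine kinase then supply the deoxynucleotides.

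E2F factors bind short sites near the start of many of these genes, so promoter windows from RefSeq (GRCm38.p6, 250 bases before to 50 after a start) were searched on both strands for 4 octamers known as E2F sites, TTTCCCGC, TTTGGCGC, TTTCGCGC and TTTGCCGC. A window was given for 37 of the 44 members, all but Gmnn, Mcm4, Gins1, Gins2, Gins4, Pole and Rfc2, and 13 of the 37 (35.1%) held an octamer, against 704 of 27025 genes with a window (2.61%). The CCAAT box was found in 22 members (59.5%, against 41.1% of genes), and the cell cycle element TTTGAA in 6 (16.2%, against 20.2%). By the calls described below, 7 of the 19 members with a window that rose in Hopx-high cells held an E2F octamer, and 6 of the 18 that were not called. Upstream stretches of 4 members are shown, those of Mcm5 and Mcm10, which rose, and those of Mcm6 and Rfc3, which did not pass the test. Capitals mark octamer matches on either strand. In Mcm5 and in the first run of Mcm6 a forward and a reverse match overlap, and the stretch of Mcm10 holds none.
Mcm5: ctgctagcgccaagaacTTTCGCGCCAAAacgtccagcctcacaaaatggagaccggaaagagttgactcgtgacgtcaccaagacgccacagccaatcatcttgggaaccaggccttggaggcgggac
Mcm10: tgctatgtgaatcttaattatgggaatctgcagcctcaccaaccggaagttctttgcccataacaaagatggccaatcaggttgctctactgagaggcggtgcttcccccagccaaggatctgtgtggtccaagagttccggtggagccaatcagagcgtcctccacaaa
Mcm6: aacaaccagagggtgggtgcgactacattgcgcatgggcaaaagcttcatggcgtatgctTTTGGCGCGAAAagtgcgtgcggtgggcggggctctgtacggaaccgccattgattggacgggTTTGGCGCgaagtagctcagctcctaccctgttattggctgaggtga
Rfc3: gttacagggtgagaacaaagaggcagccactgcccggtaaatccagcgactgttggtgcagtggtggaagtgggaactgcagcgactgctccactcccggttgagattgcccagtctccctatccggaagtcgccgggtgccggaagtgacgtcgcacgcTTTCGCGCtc
They lie at chr8:75109339-75109467 on the plus strand, and at chr2:5012792-5012961, chr1:128359706-128359875 and chr5:151651209-151651378 on the minus strand. The match of Rfc3 starts 10 bases before its start, with another from the start on that is not shown, and those of Mcm6 start 110, 106 and 47 bases before. A match is a string of letters in the window, and binding was not measured.

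Values are levels in bases per megabase: the bases of reads lying over a gene, per megabase covered in that library. Levels were not divided by transcript length, so they compare libraries for 1 gene and not genes with each other. Libraries held 105 to 329 megabases, so a level of 1 stands for about 105 to 329 covered bases, and low levels rest on few reads. Hopx-low replicate 1 and Hopx-high replicate 3 were the shallowest, and the mitochondrial synthetase gene Lars2 took 18.0% and 18.9% of their bases, against 0.525% to 6.55% elsewhere. Xist, a marker of female cells, was covered only in replicate 3 of each group, and the Y-linked Ddx3y only in replicates 1 and 2. By these genes replicate 3 differed in sex from the other libraries of its group. That difference was balanced over the groups. Hopx itself followed the labels. Hopx stood at 1.76, 0 and 1.15 bases per megabase in the naive libraries, 5.90, 7.49 and 7.59 in Hopx-low and 34.2, 26.1 and 23.1 in Hopx-high. Its log2 fold change was 2.14 ± 0.44 (SE) in Hopx-low against naive and 1.84 ± 0.44 in Hopx-high against Hopx-low (adjusted p 0.0025 and 0.025). The second call was lost in 11 of 25 alternative settings, without Hopx-low replicate 1 among them. In bulk samples like these, fewer cells of a type and less RNA per cell cannot be told apart.

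Summed over the 44 members, levels rose with activation and were highest in Hopx-high cells. The summed level of the 44 members was 1452, 1534 and 1483 bases per megabase in the naive libraries, 1932, 2441 and 2172 in Hopx-low and 2892, 3403 and 2584 in Hopx-high. No library of 1 group entered the range of another. The means were 1490 ± 41.4, 2182 ± 255 and 2960 ± 414 (SD, n = 3 each). Genes with high levels weigh most in this sum, and the mean of Mcm5 alone was 107, 332 and 541 in the 3 groups. Summed by role, means rose in order except for the sliding clamp and loaders, at 281, 270 and 309. Group means rose in order from naive through Hopx-low to Hopx-high in 33 of the 44 members (75%), against 17.1% of all 11320 features tested.

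Each gene was tested with limma on log2(level + 1), a scale on which changes of low genes come out too small. A call is a Benjamini-Hochberg adjusted p under 0.05, over all 11320 features tested. All 44 members passed the filter on low levels. Against naive cells, 13 members were higher in Hopx-low and 0 were lower, where 4.75% of all features were higher and 3.64% lower. An unadjusted p below 0.05 was found for 20 of the 44 members and for 2612 of all 11320 features. In Hopx-high cells 23 members were higher than naive and 0 were lower, where 8.41% of features were higher and 15.1% lower. Here 30 members and 4220 of all features had an unadjusted p below 0.05. Both comparisons use the same naive libraries. Between Hopx-high and Hopx-low, 5 members were higher in Hopx-high and 0 were lower, where 1.22% of features were higher and 0.919% lower. In this comparison 15 members and 1500 of all features had an unadjusted p below 0.05. The median log2 fold change of the 44 was 0.46, 0.90 and 0.49 in these comparisons, and that of all tested features was -0.16, -0.29 and -0.10. Orc1, Gins1, Mcm10 and Clspn reached a level of 1 in no naive library and so passed the filter through activated libraries alone, which makes their comparisons with naive a description. Without these 4, calls against naive numbered 12 of 40 in Hopx-low and 20 of 40 in Hopx-high. Cdc6, Cdc45, Gins2, Chaf1a and Gmnn reached a level of 1 in 2 naive libraries, and Rrm2 and Tk1 in 1. These genes too needed activated libraries to pass the filter, and their comparisons with naive carry that limit. Among the 33 members at that level in all 3 naive libraries, calls numbered 6 and 14. With Mcm10 left out, which was listed at 0 in naive cells, the members' medians were 0.44, 0.89 and 0.48.

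Scaling moves the features as a whole. Upper-quartile scaling shifted the median of all features in Hopx-high against naive from -0.29 to -0.08 and quantile normalization to -0.11. Features called in that comparison went from 952 higher and 1714 lower to 1416 and 1134, or 1337 and 1306. Members called higher then numbered 32 or 30. Without both libraries richest in Lars2, 15, 25 and 1 members were called in the comparisons as ordered above. Hopx-high replicate 2 was the highest library for 14 of the 23 members that rose in Hopx-high, replicate 1 for 9 and replicate 3 for 0.

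**Figure D1:**
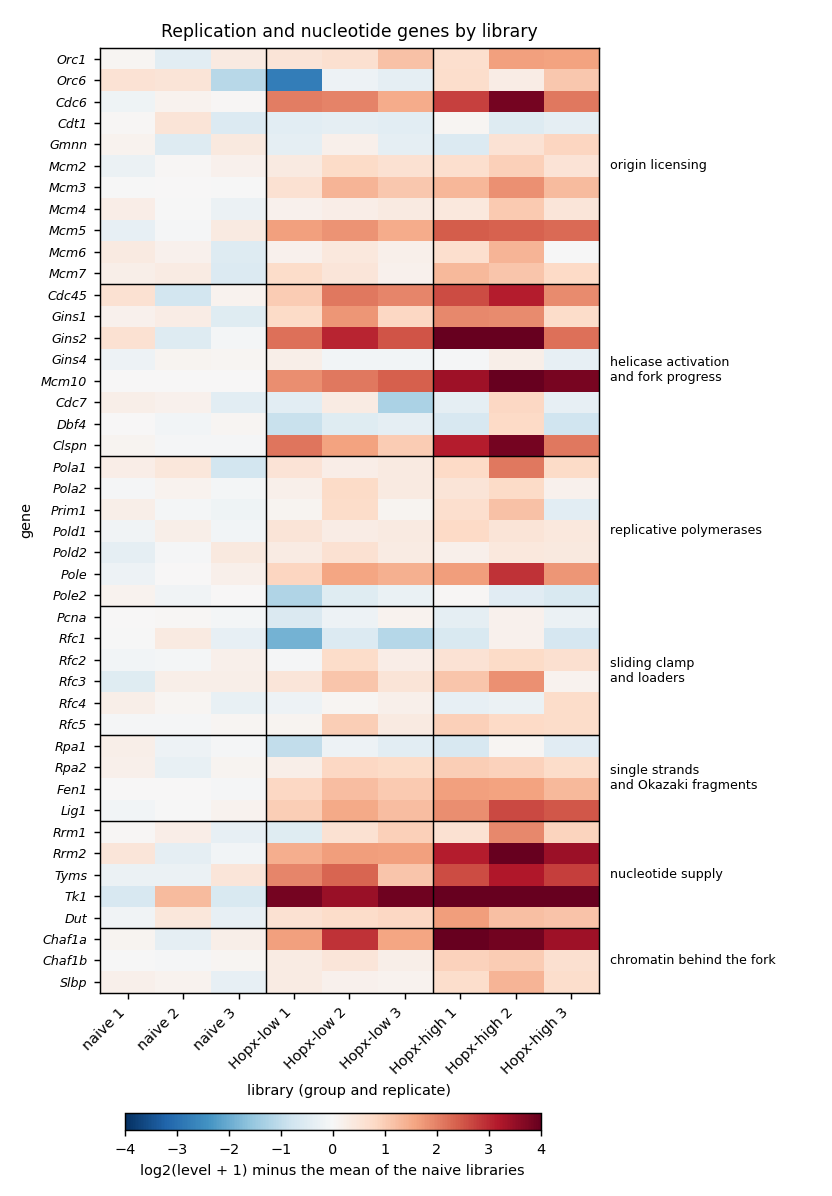
Each row is a gene, grouped by role, and each column a library; colour gives log2(level + 1) minus the mean of the naive libraries and saturates at 4. Red is concentrated in helicase activation, nucleotide supply and a few licensing genes, deepens from Hopx-low to Hopx-high, and is absent from the row of Pcna.

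Origin licensing rose in part. Of 11 genes, 4 were higher in Hopx-low (Cdc6, Mcm2, Mcm3 and Mcm5) and 5 in Hopx-high, where Mcm7 was added. Mcm5, a subunit of the Mcm helicase ring (chr8:75109468-75128439), had the smallest p over the 3 groups among them. The level of Mcm5 was 84.4, 102 and 136 in naive libraries, 332, 366 and 297 with low Hopx and 566, 549 and 507 with high Hopx. All 3 groups stood clear of each other. The log2 fold change was 1.64 ± 0.18 (SE) for Hopx-low and 2.35 ± 0.18 for Hopx-high, each against naive (adjusted p 1.3e-06 and 1.9e-09), a ratio of means of 3.09 and 5.04.

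Mcm3, another subunit of the ring, had almost equal levels in the naive libraries. Naive libraries gave Mcm3 levels of 76.9, 77.3 and 76.7, Hopx-low 118, 199 and 163 and Hopx-high 194, 276 and 187. Both activated groups lay above naive, and they overlapped each other. Its log2 fold changes were 1.02 ± 0.21 and 1.47 ± 0.21 (adjusted p 0.0029 and 2e-05). Cdc6, the ATPase that helps to load the ring, was near the lower limit of the assay in naive cells. For Cdc6 the levels were 0.823, 1.30 and 1.12 (naive), 7.55, 7.29 and 4.80 (Hopx-low) and 12.7, 28.7 and 7.92 (Hopx-high). The groups did not overlap, and Hopx-high replicate 2 was far above the other libraries. The log2 fold change reached 1.84 ± 0.47 in Hopx-low and 2.89 ± 0.47 in Hopx-high (adjusted p 0.014 and 8.3e-05). The Hopx-low call of Cdc6 was lost without naive replicate 1 or Hopx-low replicate 2 (adjusted p at most 0.061 over all alternatives).

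The ring is built from equal numbers of its subunits, and the fold changes of its subunit transcripts were unequal. Mcm2 rose from 226 ± 33.2 (mean ± SD, n = 3) to 338 ± 46.1 and 372 ± 57.2 bases per megabase (log2 0.58 ± 0.18 and 0.72 ± 0.18; adjusted p 0.0496 and 0.0061). The first of those calls sat at the threshold and was lost in 15 of 25 settings, 7 of the 9 that left out 1 library among them. Mcm7 passed in Hopx-high alone, from 59.2 ± 17.9 to 122 ± 21.5 (log2 1.06 ± 0.25, adjusted p 0.0032). Mcm4 and Mcm6 did not pass: in Hopx-high the log2 fold changes were 0.65 ± 0.25 and 0.67 ± 0.32 (adjusted p 0.061 and 0.13). As shares of the summed level of Mcm2 to Mcm7, Mcm5 made up 19.7% ± 3.96 (SD) of it in naive libraries, 33.4% ± 2.68 with low Hopx and 39.7% ± 3.70 with high Hopx, while Mcm2 made up 41.6% ± 4.01, 33.8% ± 2.29 and 27.1% ± 1.04. These shares are not corrected for transcript length, so only their change between groups can be read.

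The other licensing genes did not pass in any comparison. Orc1, the cycling subunit of the origin recognition complex, was low throughout, at 0.379 ± 0.361, 1.35 ± 0.595 and 2.49 ± 1.16 (log2 1.31 ± 0.50 in Hopx-high, adjusted p 0.059). Orc6, another subunit, stood at 6.71 ± 3.93, 3.08 ± 2.69 and 10.4 ± 3.05 and was listed at 0 in Hopx-low replicate 1. Cdt1, which brings the ring to the origin, had means of 22.2 ± 8.18, 15.9 ± 0.376 and 17.7 ± 4.12. Its log2 fold change in Hopx-high was -0.27 ± 0.33, with a 95% interval from -0.96 to 0.42. Gmnn, whose product geminin blocks Cdt1, lay between 0.593 and 3.23 in all libraries.

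Among helicase activation genes, Cdc45 and Gins2 were low in naive cells and higher in both activated groups. Of 8 genes, 3 were called higher in Hopx-low (Cdc45, Gins2 and Mcm10) and 5 in Hopx-high, where Gins1 and Clspn were added. Mcm10, Gins1 and Clspn passed the filter through activated libraries alone, so their calls against naive are a description. Mcm10 (chr2:4990724-5012791) joins the activated helicase and is needed for unwinding to begin. Mcm10 stood at 0, 0 and 0 bases per megabase in the naive libraries, 2.64, 3.32 and 4.22 in Hopx-low and 9.42, 24.6 and 12.9 in Hopx-high. It was listed at 0 in naive cells, so no fold is given against them. Its log2 fold change from Hopx-low to Hopx-high was 1.83 ± 0.47 (adjusted p 0.038), and no library of these groups overlapped.

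Gins2 is a subunit of GINS, which bridges the helicase and the leading-strand polymerase. The level of Gins2 was 2.28, 0.524 and 1.04 in naive libraries, 8.90, 17.0 and 11.4 with low Hopx and 33.6, 41.8 and 9.02 with high Hopx. Every activated library was above every naive one, and Hopx-high replicate 3 fell among the Hopx-low libraries. The log2 fold changes were 2.59 ± 0.50 and 3.50 ± 0.50 (adjusted p 0.0013 and 1.6e-05). Clspn encodes claspin, which links the fork to the checkpoint kinase. Naive libraries gave Clspn levels of 0.130, 0 and 0, Hopx-low 3.59, 2.16 and 1.11 and Hopx-high 8.12, 13.9 and 3.49. Coverage in naive cells was confined to replicate 1. On the log2 scale the difference from naive was 3.03 ± 0.51 in Hopx-high (adjusted p 0.00015) and 1.58 ± 0.51 in Hopx-low (adjusted p 0.06), for a gene that passed the filter through activated libraries alone.

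Cdc45, the partner that completes the active helicase with GINS, had means of 2.40 ± 1.45, 9.82 ± 3.91 and 18.7 ± 7.93 (log2 1.69 ± 0.46 and 2.55 ± 0.46; adjusted p 0.023 and 0.00032). Its Hopx-low call was lost in 7 of 25 settings, among them without naive replicate 2, Hopx-low replicate 2 or Hopx-low replicate 3 (adjusted p up to 0.15). Gins1 reached 3.24 ± 1.65 in Hopx-high from 0.431 ± 0.382 in naive cells (log2 1.51 ± 0.51, adjusted p 0.036); it too passed the filter through activated libraries alone, and its call was lost in 5 of the 9 fits that left out 1 library. Gins4, another subunit of the same complex, stood at 18.4 ± 2.12, 18.6 ± 2.91 and 17.9 ± 3.64, with a log2 fold change in Hopx-high of -0.05 ± 0.31 and a 95% interval from -0.69 to 0.60. The kinase Cdc7 and its activator Dbf4, which fire licensed origins, did not pass either. Cdc7 had means of 6.51 ± 1.72, 4.91 ± 3.06 and 7.25 ± 4.26, and Dbf4 of 12.8 ± 0.972, 8.31 ± 1.70 and 12.5 ± 8.86.

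**Figure D2:**
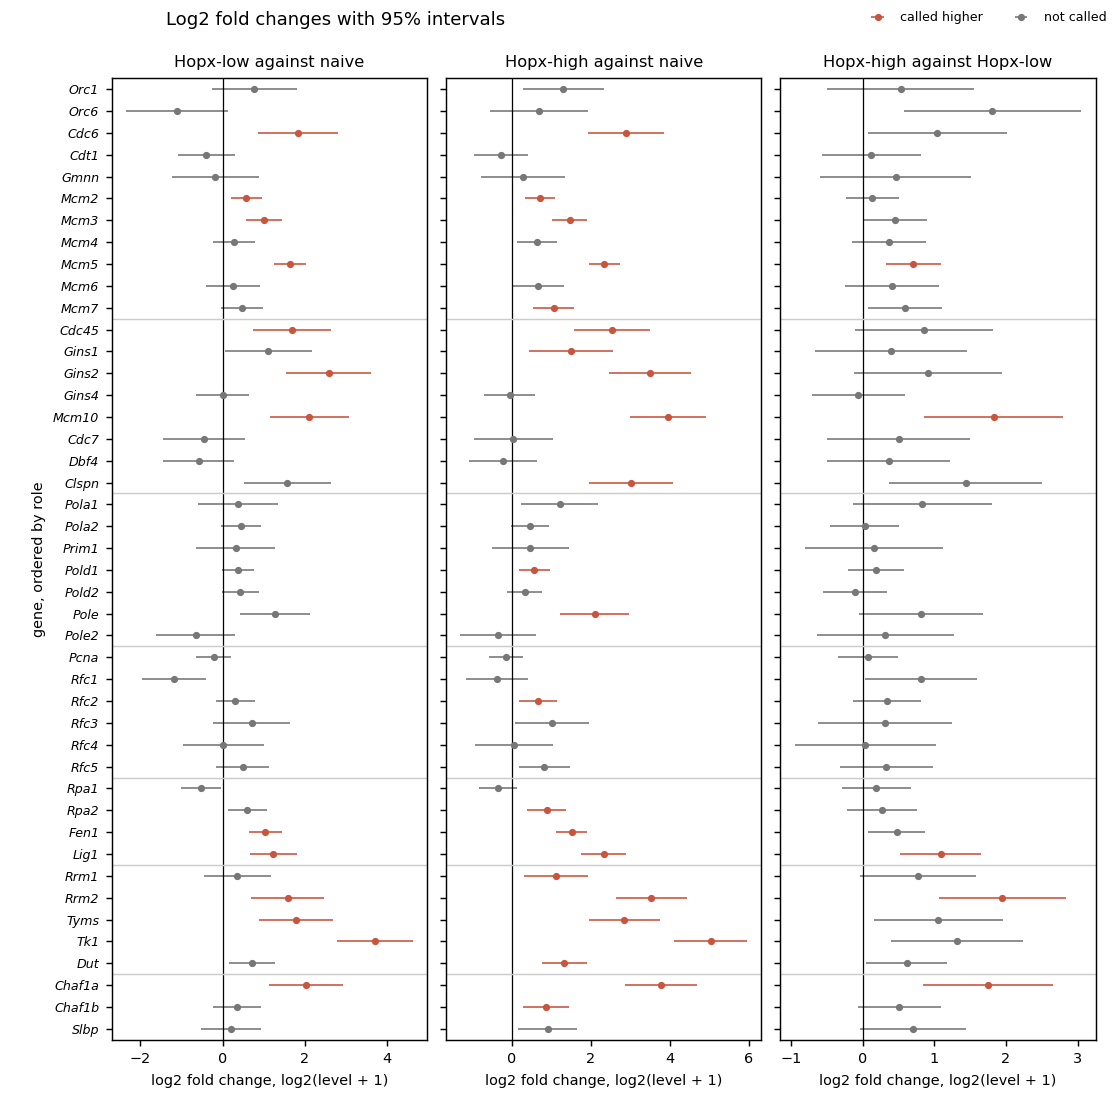
Points give the limma log2 fold change of each member in 3 comparisons and bars its 95% interval, with called members in red; the horizontal axes differ in range. Tk1 reaches 5.03 in Hopx-high against naive, and the intervals of Pcna, Cdt1 and Gins4 include 0 in all 3 panels.

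Replicative polymerase genes were called in Hopx-high alone. Of 7 genes 0 were called in Hopx-low, where 1 had an unadjusted p below 0.05, and 2 were higher in Hopx-high, Pole and Pold1. In Hopx-high 3 of the 7 had an unadjusted p below 0.05. Pole encodes the catalytic subunit of the leading-strand polymerase. For Pole the levels were 2.74, 3.42 and 3.97 (naive), 6.81, 11.9 and 10.7 (Hopx-low) and 12.8, 30.9 and 13.6 (Hopx-high). The 3 groups did not overlap, and Hopx-high replicate 2 was far above its fellow libraries. The log2 fold change was 2.10 ± 0.42 in Hopx-high (adjusted p 0.00077) and 1.28 ± 0.42 in Hopx-low (adjusted p 0.059).

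Pold1, the catalytic subunit of the lagging-strand polymerase, changed by less. Pold1 stood at 110.0, 142 and 111 bases per megabase in the naive libraries, 172, 148 and 153 in Hopx-low and 208, 173 and 161 in Hopx-high. Both activated groups were above naive, with overlap between them. In Hopx-high the change was 0.58 ± 0.19 (adjusted p 0.03), and the call was lost without naive replicate 1, naive replicate 3 or Hopx-high replicate 1. Pola1, the catalytic subunit of the primer-making polymerase, did not pass. The level of Pola1 was 4.50, 5.32 and 1.75 in naive libraries, 5.62, 4.48 and 4.80 with low Hopx and 6.94, 18.6 and 6.69 with high Hopx. Hopx-high lay above both other groups, mostly through replicate 2 (log2 1.22 ± 0.47 against naive, adjusted p 0.064).

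The remaining polymerase genes gave no calls. Pola2, a regulatory subunit, went from 49.5 ± 4.33 to 68.5 ± 13.9 and 70.0 ± 14.2 (adjusted p 0.14 in Hopx-high). Prim1, the primase, had means of 3.99 ± 0.740, 5.32 ± 1.68 and 6.58 ± 3.70. Pold2 stood at 80.4 ± 21.0, 107 ± 12.7 and 99.2 ± 7.73, and Pole2, the second subunit of the enzyme whose catalytic subunit rose, at 3.83 ± 0.471, 2.16 ± 0.961 and 2.89 ± 0.983 (log2 -0.34 ± 0.46 in Hopx-high, adjusted p 0.62).

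Among the sliding clamp and its loaders a single gene was called. Of 6 genes 0 were called in Hopx-low, where 1 had an unadjusted p below 0.05, and 1 was higher in Hopx-high, Rfc2. In Hopx-high 3 of the 6 had an unadjusted p below 0.05. Pcna, the clamp itself and a common marker of cycling cells, stayed in 1 range. Naive libraries gave Pcna levels of 186, 189.7 and 173, Hopx-low 121, 159 and 202 and Hopx-high 143, 204 and 155. The groups overlapped fully. Its log2 fold change was -0.22 ± 0.20 in Hopx-low (95% interval -0.64 to 0.21) and -0.14 ± 0.20 in Hopx-high (95% interval -0.56 to 0.28), with adjusted p 0.57 and 0.64. RefSeq lists the pseudogenes Pcna-ps1 and Pcna-ps2, and the sources used here do not say how reads with several matches were assigned.

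Rfc2, a small subunit of the clamp loader, passed in Hopx-high. For Rfc2 the levels were 47.7, 49.3 and 59.3 (naive), 50.7, 86.5 and 61.9 (Hopx-low) and 78.2, 88.6 and 80.7 (Hopx-high). All Hopx-high libraries were above the naive ones, by a log2 fold change of 0.66 ± 0.23 (adjusted p 0.043), and the call was lost in 7 of the 9 fits that left out 1 library. Rfc5, another small subunit, had a similar shift that missed the threshold. Rfc5 stood at 14.0, 14.1 and 15.2 bases per megabase in the naive libraries, 15.6, 29.8 and 18.9 in Hopx-low and 28.6, 25.8 and 24.5 in Hopx-high. Both activated groups lay above naive (log2 0.82 ± 0.31 in Hopx-high, adjusted p 0.059).

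Rfc1, the large subunit of the loader, had a negative log2 fold change in Hopx-low cells. The level of Rfc1 was 23.7, 30.9 and 19.0 in naive libraries, 5.73, 16.2 and 10.4 with low Hopx and 15.4, 27.3 and 14.7 with high Hopx. Every Hopx-low library was below every naive one, while Hopx-high overlapped both. The log2 fold change in Hopx-low was -1.19 ± 0.38 (adjusted p 0.052), just short of a call, and in Hopx-high it was -0.37 ± 0.38 (adjusted p 0.49). It was the 1 member called lower under upper-quartile scaling (adjusted p 0.034) and without Hopx-low replicate 2 (adjusted p 0.023). Rfc1 was also called lower with quantile normalization, library totals without Lars2 and a pseudocount of 5 (adjusted p 0.0485, 0.045 and 0.048). The same held with a replicate block, only the 6 libraries compared, or without Hopx-high replicate 2 (adjusted p 0.031, 0.04 and 0.027). Without Hopx-low replicate 1 its adjusted p was 0.21. Rfc3 had a Hopx-high mean of 11.6 ± 6.81 against 4.74 ± 1.48 in naive cells without passing (adjusted p 0.1), and Rfc4 stood at 2.06 ± 0.559, 2.08 ± 0.409 and 2.35 ± 1.49.

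Genes that handle single strands and join Okazaki fragments rose, with 1 exception. Of 4 genes, 2 were higher in Hopx-low (Fen1 and Lig1) and 3 in Hopx-high, where Rpa2 was added. Lig1 is the ligase that seals the fragments (chr7:13277175-13311426). Naive libraries gave Lig1 levels of 13.6, 14.5 and 16.3, Hopx-low 30.0, 43.7 and 35.9 and Hopx-high 56.0, 96.8 and 87.3. The 3 groups did not overlap. The log2 fold changes were 1.24 ± 0.27, 2.33 ± 0.27 and, between the activated groups, 1.09 ± 0.27 (adjusted p 0.0049, 1.1e-06 and 0.035).

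Fen1, the flap nuclease that trims fragments before they are joined, was close to constant within naive cells. For Fen1 the levels were 68.1, 68.5 and 65.2 (naive), 121, 159.8 and 140.3 (Hopx-low) and 209.9, 209 and 168 (Hopx-high). No group overlapped another, and the log2 fold changes were 1.04 ± 0.19 and 1.52 ± 0.19 (adjusted p 0.00078 and 2.9e-06). Rpa2 and Rpa1 belong to the complex that coats single-stranded DNA. Rpa2 stood at 50.9, 35.2 and 47.2 bases per megabase in the naive libraries, 52.2, 78.5 and 74.9 in Hopx-low and 88.4, 84.7 and 73.5 in Hopx-high. Both activated groups lay above naive and overlapped each other. Rpa2 rose in Hopx-high by 0.89 ± 0.23 (adjusted p 0.0087), a call lost without naive replicate 2. Rpa1, the large subunit, had means of 133 ± 21.5, 93.2 ± 24.1 and 107 ± 29.4, with log2 fold changes of -0.53 ± 0.23 and -0.34 ± 0.23 that did not pass (adjusted p 0.18 and 0.3).

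Nucleotide supply rose as a whole in Hopx-high cells. Of 5 genes, 3 were higher in Hopx-low (Rrm2, Tyms and Tk1) and all 5 in Hopx-high, where Rrm1 and Dut were added. Tk1, the cytosolic thymidine kinase that salvages thymidine (chr11:117815519-117826087), had the largest change among the members on the log2(level + 1) scale in both comparisons with naive; by the ratio of means Clspn was higher, and Mcm10 has no ratio. The level of Tk1 was 0, 2.76 and 0.0394 in naive libraries, 21.1, 16.2 and 22.4 with low Hopx and 57.7, 56.0 and 39.8 with high Hopx. Naive coverage came almost wholly from replicate 2, and the 3 groups did not overlap. No other naive library reached a level of 1, so Tk1 needed activated libraries to pass the filter. The changes were 3.72 ± 0.45 and 5.03 ± 0.45 (adjusted p 3.2e-06 and 1.4e-08). Between Hopx-low and Hopx-high the change of 1.31 ± 0.45 did not pass (adjusted p 0.16).

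Rrm2, the small and cell cycle-bound subunit of ribonucleotide reductase (chr12:24708254-24714146), separated all 3 groups. Naive libraries gave Rrm2 levels of 1.85, 0.614 and 0.886, Hopx-low 4.57, 5.53 and 5.47 and Hopx-high 17.1, 33.4 and 20.8. Hopx-high libraries were at 17.1 or more and Hopx-low libraries at 5.53 or less. The log2 fold changes were 1.59 ± 0.43, 3.54 ± 0.43 and, between the activated groups, 1.95 ± 0.43 (adjusted p 0.021, 1.6e-06 and 0.013). Its Hopx-low call was lost in 8 of 25 settings, among them without naive replicate 2 or 3 or Hopx-low replicate 2 or 3 (adjusted p up to 0.19). Tyms, thymidylate synthase, makes dTMP from dUMP. For Tyms the levels were 1.21, 1.21 and 2.62 (naive), 9.14, 11.9 and 4.59 (Hopx-low) and 14.8, 22.8 and 16.7 (Hopx-high). Its groups did not overlap, and its changes were 1.79 ± 0.43 and 2.85 ± 0.43 (adjusted p 0.0097 and 3.9e-05); the first call was lost without Hopx-low replicate 2 (adjusted p 0.066). RefSeq lists a pseudogene, Tyms-ps.

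Rrm1, the large subunit of the reductase, had a smaller log2 fold change than its partner. Its means were 14.4 ± 3.14, 20.3 ± 9.61 and 35.3 ± 18.7 (log2 1.13 ± 0.39 in Hopx-high, adjusted p 0.038), and the call was lost in 4 of the 9 fits that left out 1 library. Dut, which removes dUTP before it can enter DNA, had means of 22.1 ± 6.85, 36.1 ± 2.70 and 56.5 ± 12.3 (log2 1.34 ± 0.27, adjusted p 0.0011).

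Chromatin genes of the fork rose most through 1 subunit. Of 3 genes, 1 was higher in Hopx-low (Chaf1a) and 2 in Hopx-high, where Chaf1b was added. Chaf1a is the large subunit of CAF-1, the chaperone that sets histones on new DNA (chr17:56040416-56068026). Chaf1a stood at 1.22, 0.596 and 1.39 bases per megabase in the naive libraries, 5.32, 14.1 and 5.14 in Hopx-low and 34.3, 28.4 and 20.4 in Hopx-high. The groups did not overlap. The log2 fold changes were 2.03 ± 0.44, 3.78 ± 0.44 and, between the activated groups, 1.75 ± 0.44 (adjusted p 0.004, 9.1e-07 and 0.035).

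Chaf1b, the middle subunit of the same chaperone, changed by far less on this scale. The level of Chaf1b was 17.4, 17.0 and 18.9 in naive libraries, 22.8, 25.2 and 20.9 with low Hopx and 34.3, 37.3 and 28.3 with high Hopx. Its groups were also apart, with a change of 0.86 ± 0.28 in Hopx-high (adjusted p 0.029) that was lost in 5 of the 9 fits that left out 1 library. Slbp, the histone stem-loop binding protein, missed the threshold. Naive libraries gave Slbp levels of 10.2, 9.74 and 6.79, Hopx-low 11.2, 9.91 and 9.78 and Hopx-high 14.9, 23.9 and 14.9. Hopx-high libraries were above all others (log2 0.92 ± 0.36 against naive, adjusted p 0.066).

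**Figure D3:**
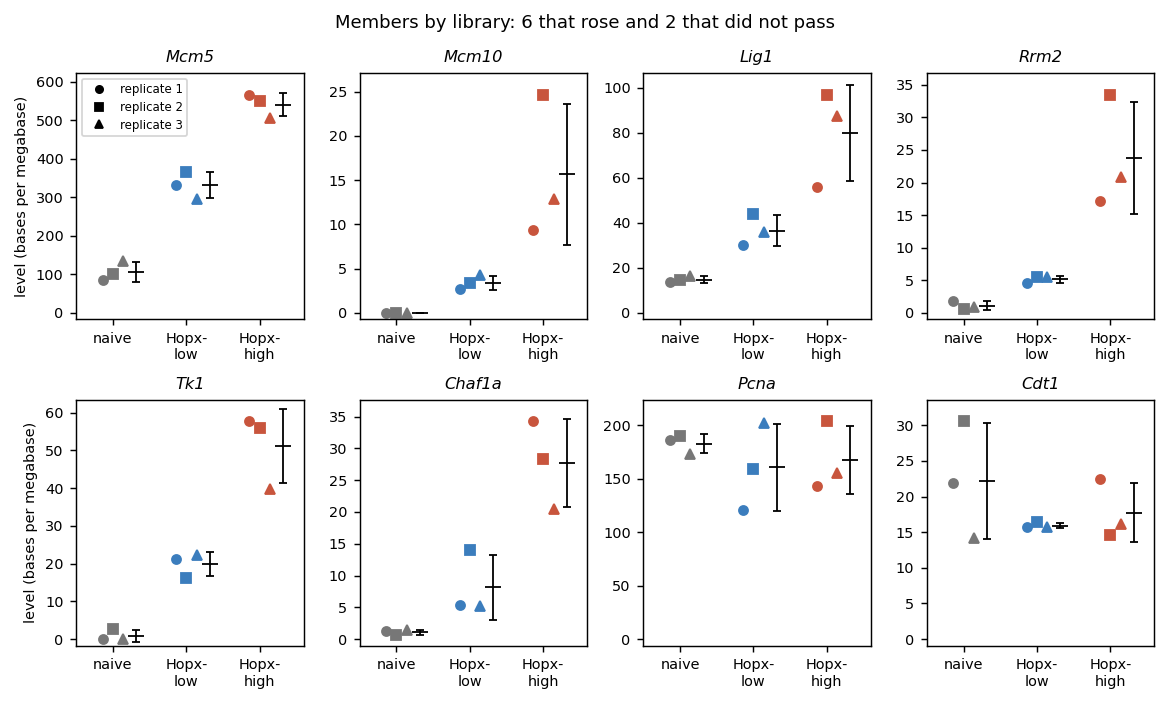
Levels in bases per megabase of 8 members in each library, with symbols for replicates and a bar for the mean ± SD of 3 libraries at the right of each group; vertical axes differ. Mcm5, Mcm10, Lig1, Rrm2, Tk1 and Chaf1a step up through separate groups, whereas Pcna and Cdt1 overlap.

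The 5 members called between Hopx-high and Hopx-low came from 5 roles: Mcm5, Mcm10, Lig1, Rrm2 and Chaf1a, with log2 fold changes from 0.71 to 1.95. They were the least firm calls of the 3 comparisons. With 1 library left out, 0 to 4 members were called: 0 without Hopx-low replicate 3 or Hopx-high replicate 2, 1 without Hopx-low replicate 1 or Hopx-high replicate 3, 2 without Hopx-low replicate 2, and 3 without Hopx-high replicate 1. None of the 5 was called in every fit that left out 1 library, against 8 of 13 for Hopx-low and 17 of 23 for Hopx-high against naive. On the direction alone, 42 of the 44 members had a positive log2 fold change, against 39.1% of all tested features; Pold2 and Gins4 were the 2 that did not.

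Genes around the 44 were read from 6 lists of related pathways. Their shares stand against the same background as above, 4.75% of all features higher and 3.64% lower in Hopx-low and 8.41% and 15.1% in Hopx-high. In Hopx-high against Hopx-low the background was 1.22% higher and 0.919% lower. Of 33 other replication factors, 4 were higher in Hopx-low (12.1%) and 7 in Hopx-high (21.2%). The 4 that were lower in Hopx-high (12.1%) were a smaller share than among all features. Of the 27 at a level of 1 in all 3 naive libraries, 2 were higher in Hopx-low, and 3 were higher and 4 lower in Hopx-high. Between Hopx-high and Hopx-low, 0 of the 33 were called. Their median log2 fold change was -0.05 in Hopx-low and 0.13 in Hopx-high, each against naive, and -0.10 between the activated groups. The medians of all tested features in these comparisons were -0.16, -0.29 and -0.10. Top2a, the topoisomerase of dividing cells, rose by 2.37 ± 0.52 and 4.23 ± 0.52 on the log2 scale (adjusted p 0.0044 and 2e-06). Chtf18, of an alternative clamp loader, rose by 1.30 ± 0.30 and 1.99 ± 0.30, Pold4, a small polymerase subunit, by 0.83 ± 0.21 and 1.29 ± 0.21, and Dtl, of the ligase that destroys Cdt1, by 1.59 ± 0.45 and 2.37 ± 0.45. In Hopx-low the calls of Pold4 and Dtl were lost in 6 and 9 of 25 settings. Top2a and Dtl reached a level of 1 in 1 naive library each, so both needed activated libraries to pass the filter. The 4 that were lower in Hopx-high, named after their values were seen, were Orc4 (-1.64 ± 0.48), Pole4 (-0.95 ± 0.33), Donson (-1.03 ± 0.35) and Mcmbp (-0.67 ± 0.22). The last 3 lost their calls under upper-quartile scaling, and the call of Orc4 was lost in 7 of 25 settings, among them without naive replicate 1 or 2, without Hopx-high replicate 1 or 3 and without both libraries richest in Lars2.

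Nucleotide enzymes outside the 44 were called in both directions. Of 16 other deoxynucleotide and folate enzymes, 4 were higher (25%) and 2 lower (12.5%) in Hopx-low. In Hopx-high 2 were higher and 2 lower (12.5% each), shares near those of all features. Tk2, the mitochondrial thymidine kinase, fell where Tk1 rose. For Tk2 the levels were 106, 108 and 109 (naive), 52.3, 77.5 and 68.2 (Hopx-low) and 54.6, 44.6 and 49.3 (Hopx-high). Its changes were -0.72 ± 0.22 and -1.11 ± 0.22 (adjusted p 0.041 and 0.00064). Rrm2b, the reductase subunit used outside S phase and chosen here as the partner of Rrm2 after its values were seen, did the same. Rrm2b stood at 15.6, 14.8 and 9.56 bases per megabase in the naive libraries, 3.68, 2.44 and 4.20 in Hopx-low and 0.379, 5.18 and 4.69 in Hopx-high. The naive libraries were above all others, with changes of -1.68 ± 0.52 and -1.95 ± 0.52 (adjusted p 0.045 and 0.0089). In Hopx-low the falls of Tk2 and Rrm2b were lost in 12 and 17 of 25 alternative settings.

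Shmt1 and Shmt2, which feed the folate cycle behind thymidylate, were higher in Hopx-low by 2.68 ± 0.38 and 1.04 ± 0.21 (adjusted p 3.7e-05 and 0.0021). In Hopx-high, Shmt1 was higher by 2.21 ± 0.38 (adjusted p 0.00018) and Shmt2 missed the threshold at 0.56 ± 0.21 (adjusted p 0.057). Dctd, which makes dUMP from dCMP, rose by 1.96 ± 0.44 and 1.72 ± 0.44 (adjusted p 0.0056 and 0.0071).

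Most genes of purine and pyrimidine synthesis were not called. Of 18 genes, 17 were tested; 3 were higher (17.6%) and 1 lower (5.88%) in Hopx-low. In Hopx-high 1 was higher and 1 lower (5.88% each), both below the shares of all features. Against Hopx-low, 2 were lower in Hopx-high (11.8%, against 0.919% of all features). Cad, which starts pyrimidine synthesis, was higher in Hopx-low than in naive cells (0.92 ± 0.17, adjusted p 0.0011) and lower in Hopx-high than in Hopx-low (-0.69 ± 0.17, adjusted p 0.036). The second call was lost in 13 of 25 settings, upper-quartile scaling among them. Umps, which completes UMP, rose in Hopx-low by 0.96 ± 0.25 (adjusted p 0.016), a call lost in 6 of 25 settings. Pfas, of purine synthesis, rose by 0.99 ± 0.18 and 0.68 ± 0.18, and Impdh1, of guanine nucleotide synthesis, was lower, at -0.70 ± 0.18 and -1.48 ± 0.18 (adjusted p 0.016 and 1.8e-06), the first call lost in 7 of 25 settings.

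E2F factors, which switch replication genes on and off, rose in part. Of 13 E2F and RB family genes, 2 were higher in Hopx-low (15.4%) and 6 in Hopx-high (46.2%), 2 of them also above Hopx-low, and 0 were lower. Of the 10 at a level of 1 in all 3 naive libraries, 1 was higher in Hopx-low and 3 in Hopx-high. E2f8 reached that level in 0 naive libraries and E2f3 in 2, so both needed activated libraries to pass the filter. E2f1, an activator, rose by 1.73 ± 0.30 and 2.53 ± 0.30 (adjusted p 0.00035 and 9.7e-07). E2f2, another activator, separated the activated groups. The level of E2f2 was 42.3, 59.9 and 78.6 in naive libraries, 59.0, 59.1 and 56.8 with low Hopx and 196, 192 and 120.5 with high Hopx. Hopx-low overlapped naive (adjusted p 0.99), and Hopx-high was above both, by 1.49 ± 0.24 against Hopx-low (adjusted p 0.00066), a call kept in all 25 settings. E2f8, a repressor induced late in the wave, was listed at 0 in all naive libraries and rose from Hopx-low to Hopx-high by 2.24 ± 0.43 (adjusted p 0.0045). E2f3 rose in Hopx-high by 2.20 ± 0.52 (adjusted p 0.004).

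Chromatin maintenance and the checkpoint followed. Of 12 other chromatin assembly and maintenance genes, 3 were higher in Hopx-low (25%) and 4 in Hopx-high (33.3%), 2 of them also above Hopx-low, and 0 were lower. Uhrf1, which carries DNA methylation onto new strands, separated all 3 groups. Naive libraries gave Uhrf1 levels of 5.44, 4.37 and 5.80, Hopx-low 44.4, 59.0 and 43.6 and Hopx-high 111, 139.5 and 115. The changes were 3.00 ± 0.26, 4.30 ± 0.26 and 1.30 ± 0.26 (adjusted p 2.6e-08, 2.3e-11 and 0.0072). Cdca7 rose by 2.38 ± 0.29 and 2.89 ± 0.29, Asf1b, which passes histones to CAF-1, by 1.28 ± 0.31 and 2.54 ± 0.31, and Hells passed in Hopx-high at 1.41 ± 0.49. The call of Hells was lost in 12 of 24 settings, with values from 0.64 to 2.13, and that of Uhrf1 between the activated groups without Hopx-low replicate 3, in 3 of 25 settings in all. Asf1b was the other gene called between the activated groups. That call was lost in 13 of 25 settings, among them every fit that left out a library of those groups. Of 12 replication checkpoint genes, 1 was higher in Hopx-low (8.33%), 6 were higher in Hopx-high (50%) and 1 was lower in Hopx-high (8.33%). Of the 6 at a level of 1 in all 3 naive libraries, 0 were higher in Hopx-low, and 1 was higher and 1 lower in Hopx-high. Wee1 and Brca1 reached that level in 1 naive library each. Wee1, the kinase that restrains CDKs, rose by 2.22 ± 0.48 and 2.71 ± 0.48. In Hopx-high Brca1 rose by 2.02 ± 0.55, a call lost without naive replicate 1, and Rad9a, of the checkpoint clamp, fell (-1.40 ± 0.21, adjusted p 2.8e-05).

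**Figure D4:**
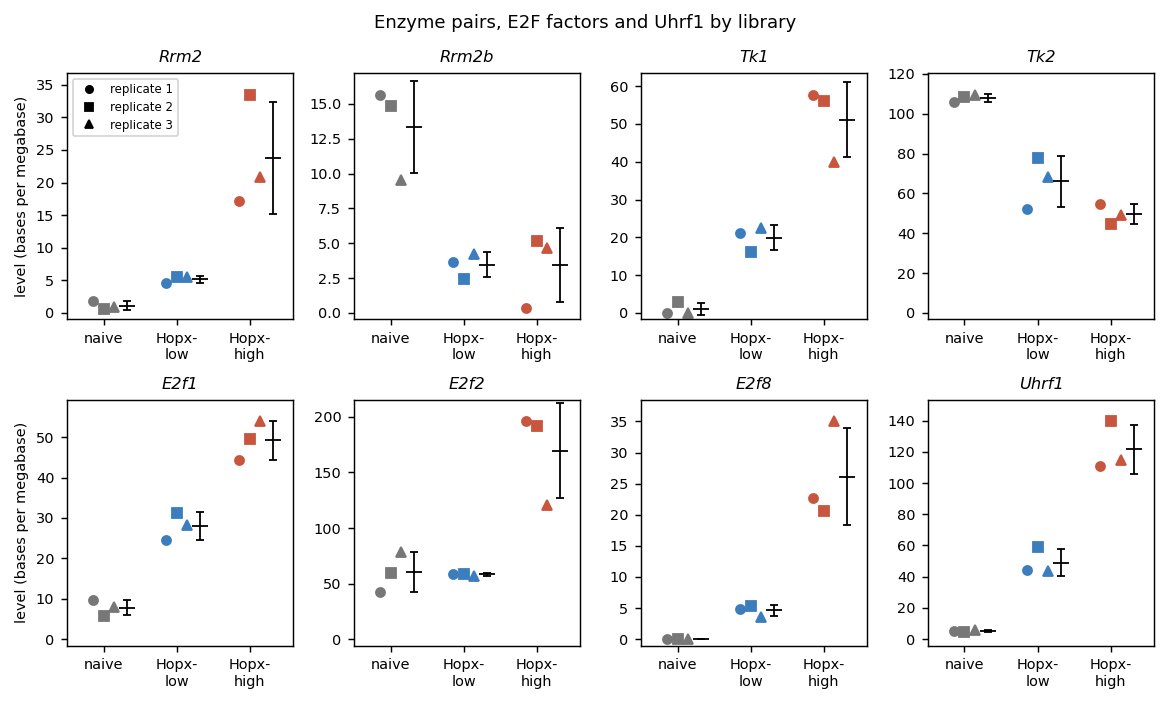
Levels in bases per megabase of 8 genes in each library, with symbols for replicates and a bar for the mean ± SD of 3 libraries; vertical axes differ. Rrm2 and Tk1 step up while Rrm2b and Tk2 step down from naive cells, and E2f2 is highest in the Hopx-high libraries, at 196, 192 and 120.5.

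Markers of other cell types were also higher in Hopx-high. The summed level of 10 B cell markers ran from 13.1 to 49.9 in naive libraries, from 9.85 to 20.0 with low Hopx and from 58.5 to 94.4 with high Hopx; 2 of them (Cd79b and Cd22) were higher in Hopx-high than in naive cells and 3 (Cd79a in addition) higher than in Hopx-low, and none was at 0 in all libraries. For monocytes and macrophages, with 9 of 10 markers in the table, it was 18.6 to 45.2, 11.5 to 44.3 and 59.9 to 128, with Lyz2 higher than in naive cells and Csf1r higher than in Hopx-low. The 6 CD4 T cell markers in the table summed to 4238 to 4984, 3896 to 4662 and 3678 to 4730, with Cd3g lower in both activated groups, and the 2 CD8 markers to 126 to 149, 52.6 to 84.0 and 39.3 to 45.2. Neither the B cell list nor the monocyte and macrophage list had a gene called higher in Hopx-low than in naive cells. The part of B cells and macrophages in the differences of the 44 members was not tested in any comparison.

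Plasma cell markers summed to 31.7 to 63.6, 41.3 to 68.1 and 33.8 to 50.1, and dendritic cell markers to at most 2.25, 5.89 and 8.06 in the 3 groups. Neutrophil markers reached at most 5.68, 0 and 2.99, erythroid markers 40.4, 22.7 and 52.9, and NK cell markers 0, 0.461 and 3.98. None of these lists had a called gene.

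Coverage can be shared between neighbours. The sources used here do not give the strand setting, and 12 of the 44 members overlap a protein-coding gene in RefSeq. Among members called, 6 in Hopx-low and 7 in Hopx-high have such a partner, and 0 of the partners with a value were higher; Ubxn6, which overlaps Chaf1a, was lower in Hopx-high (log2 -0.61, adjusted p 0.032). Ufd1, beside Cdc45, and Zswim9, beside Lig1, have no value under those names. Eif4a2, which overlaps Rfc4, fell by 1.06 in Hopx-low and 1.37 in Hopx-high on the log2 scale (adjusted p 0.0069 and 0.00026).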

How the data were processed

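Total RNA of 9 libraries was analysed; small RNA libraries of the same groups were not analysed here. Per the labels' protocols, Trizol and a mirVana kit were used to isolate RNA, ribosomal RNA was removed, and Ion Torrent libraries were built. The submitters' processing notes name mm10 and bedtools; the sources used here do not give the aligner, annotation, strand setting or handling of reads that match several places.

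The authors deposited 1 signal value per feature and library. From the values, each signal equals the covered bases plus 1, scaled by the ratio of the mean total over libraries to its own library's total: divided by its column's smallest value, 100% came out whole within 1e-06. These are bases and not reads, so no test for counts was used. They were turned back into bases per megabase covered in the library (104.9 to 329.4 megabases), a scale settled with the deposited values already known; the deposited scale is among the alternatives. No column was without a sample. Equal base coverage between libraries of a group was found for at most 0.0651% of features, so each was counted as a separate library.

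Features that reached a level of 1 in 3 or more libraries (11320 of 23219; 8904 were at 0 in all) were tested with limma 3.58.1 in R 4.3.3 (trend and robust settings, all 9 libraries in 1 fit, group as the only term) on log2(level + 1), with Benjamini-Hochberg adjustment over all features tested in a comparison. Tables and figures came from Python 3.11.15 with numpy 2.4.6, pandas 2.3.3 and matplotlib 3.10.9. The test was tried on simulated data with known changes first. Positions and promoter windows come from RefSeq tables of GRCm38.p6, the mm10 build, matched by symbol. A protein table was not used here.

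The 44 members and the lists of roles, related pathways and cell type markers were chosen with earlier results of these data known. Values in every library are given, in each role, for the 3 members with the smallest p of limma's F test, for members called lower or called between the activated groups, and for Hopx; up to 4 called genes were named from each related list by the same p, except where a gene is not reported here. Levels of Pcna, Tk2, Rrm2b, E2f2 and Uhrf1 by library were added after their values were seen. Alternatives were other scalings, filters, pseudocounts, thresholds and limma settings, a replicate block and fits without libraries.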

Additional observations from a re-analysis of the deposited data

How the results depend on the processing

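Over the alternatives, members called higher than in naive cells numbered 16 to 32 in Hopx-high and 6 to 17 in Hopx-low (18 called with 1 lower, Rfc1, under upper-quartile scaling), the 6 with only replicates 1 and 2. Calls held in every setting numbered 16 of 23, 5 of 13 and, between Hopx-high and Hopx-low, 0 of 5. Between the activated groups 0 members were called on the deposited scale, with a pseudocount of 0.1, with only replicates 1 and 2 or at an adjusted p below 0.01, 1 with a test against a fold of 1.2, 1 without both libraries richest in Lars2, and 2 with limma without trend and robust settings. With 1 library left out, members called ranged from 9 to 16 (Hopx-low against naive), 18 to 26 (Hopx-high against naive) and 0 to 4; all features called from 577 to 1168, 1724 to 3145 and 132 to 277; and the members' median log2 fold change from 0.44 to 0.62, 0.78 to 1.02 and 0.37 to 0.70. That median in Hopx-high against naive was 1.12 with upper-quartile scaling, 1.15 with quantile normalization and 0.70 with a pseudocount of 5, and in Hopx-low 0.62 without both libraries richest in Lars2. The ratio of summed levels of Hopx-high to naive was 1.99, and 2.32 with upper-quartile scaling. All features called were, for Hopx-low against naive (950), 614 without trend and robust settings, 522 against a fold of 1.2, 456 with replicates 1 and 2 and 517 at 0.01; for Hopx-high against naive (2666), 1540, 1106 and 1442 under the last 3 of these; and between the activated groups (242), 159, 118, 69 and 111, with 143 on the deposited scale and 154 with a pseudocount of 0.1. Replicate numbers are shared across groups, and whether they pair the libraries was not settled. Correlations of deviations between libraries of the same number ran from -0.13 to 0.19. Between Hopx-high and Hopx-low they were 0.19, 0.14 and 0.06, where libraries of unlike number gave -0.15 to 0.06. With the replicate block, 15, 23 and 4 members were called, 1 of the 15 lower (Rfc1), and 970, 2677 and 255 features. No called fold change of a member or related gene reversed. The alternatives for related genes and Hopx were chosen after seeing the data. The causes of these shifts were not tested. Low genes such as Mcm10, Gins1 and Clspn are limited by depth, since a level of 1 is about 105 to 329 bases.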
